A study of Mus musculus with 16 samples.

Results

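The NF-kappaB genes examined here encode the 5 subunits of the transcription factor (Nfkb1, Nfkb2, Rel, Rela and Relb), 3 inhibitors that hold it in the cytoplasm (Nfkbia, Nfkbib and Nfkbie), the nuclear inhibitor-like cofactor Nfkbiz and the deubiquitinase Tnfaip3. They were taken by gene name, and all 10 were found, once each, among the 49315 genes of the deposited table. RNA had been sequenced in bulk from tail intervertebral discs of 16 mice, and each library held 4 discs pooled from 1 mouse. Wild-type mice, for which the series title names DBA, an inbred strain, gave 3 intact and 4 injured samples. Mice with the Adam8EQ genotype, called mutants below, gave 4 intact and 5 injured samples. Adam8 encodes a membrane-anchored metalloprotease. How the EQ allele was made, the age of the mice, the way discs were injured and the time after injury are not described in the labels used here. The names of the mutant libraries begin with A8 (mice 1 and 2 of each treatment) or M (all others), and wild-type names begin with D, so naming and genotype cannot be told apart between mutants and wild type.

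NF-kappaB acts as a dimer. Rela, Rel and Relb carry a transcription activation domain, while Nfkb1 and Nfkb2 encode precursors that are cut to shorter DNA-binding subunits. In resting cells the inhibitors mask the dimers, and after signals such as TNF, IL-1 or microbial products a kinase complex marks the inhibitors for destruction, which frees the dimers to enter the nucleus. Several family members, Nfkbia and Tnfaip3 among them, are known as targets of the factor that feed back on it. In the intervertebral disc the pathway is known for inducing cytokines and matrix-degrading enzymes. The measurements below are of mRNA, and neither protein, phosphorylation nor nuclear entry was measured.

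Because self-induction is part of how this family is known to work, the start regions of the genes were read for kappaB sites. RefSeq windows of 250 bases before a transcription start (GRCm38.p6) were matched for 7 of the 10 genes, with 10 windows in all, and none was matched for Nfkb1, Relb and Nfkbiz. The kappaB consensus, searched on both strands, was present in 7 of the 10 windows and for 5 of the 7 genes. Over all 32841 windows of the same length it was present in 2382 (7.25%). The looser form GGGNNNNNCC, which includes every match to the consensus, was present in 9 of the 10 windows, against 45.8% of all windows. Rela and Nfkbib held no match to the consensus. A match describes letters in the window and is neither shown binding nor a cause of any value below.

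Stretches around matches are shown for the genes whose levels are followed below, 5′ to 3′ on the gene's own strand, in lower case with each consensus match (on either strand, overlapping matches merged) in capitals. The full windows of Nfkbia (chr12:55492648-55492897, minus strand) and Nfkbie (chr17:45555450-45555699, plus strand) are given because they lie outside annotated exons. For Rel (chr11:23771042-23771070, minus strand), Nfkb2 (chr19:46304689-46304717 and chr19:46304716-46304736, plus strand) and Tnfaip3 (chr10:19015516-19015545 and chr10:19015411-19015432, minus strand) only the site is given. The Nfkb2 sites shown are from window 1, all 250 bases of which lie in annotated exons of the gene. Its windows 2 and 3 also held a match each, not shown.
Nfkbia window: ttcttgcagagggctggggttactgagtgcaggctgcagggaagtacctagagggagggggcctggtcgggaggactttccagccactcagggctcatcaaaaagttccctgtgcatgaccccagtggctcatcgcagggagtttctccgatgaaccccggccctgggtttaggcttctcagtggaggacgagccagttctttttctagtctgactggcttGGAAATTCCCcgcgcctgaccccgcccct
Nfkbie window: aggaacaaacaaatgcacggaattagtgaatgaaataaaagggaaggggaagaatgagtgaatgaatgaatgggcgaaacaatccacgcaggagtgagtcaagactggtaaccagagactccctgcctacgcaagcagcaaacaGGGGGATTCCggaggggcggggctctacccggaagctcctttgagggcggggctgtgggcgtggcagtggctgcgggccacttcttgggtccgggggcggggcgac
Rel site: gtaagcagcGGGAAATCCCCccccctccc
Nfkb2 first site: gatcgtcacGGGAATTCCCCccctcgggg
Nfkb2 second site: ggggccgaaaGGGGCTTTCCc
Tnfaip3 first site: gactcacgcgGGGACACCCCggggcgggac
Tnfaip3 second site: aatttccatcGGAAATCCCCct

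All levels are TPM values, which divide reads by gene length and scale each library to the same total. Each library held between 10196610 and 24837051 reads, as worked back from TPM and exon length, and the 10 genes took between 59 (Nfkbie) and 4289 (Nfkbiz) implied reads in a library. Adam8 itself lay between 0.956 and 2.97 TPM in the 7 intact libraries, between 3.52 and 66.3 in injured wild-type discs and between 16.2 and 264 in injured mutant discs, and its level does not check the EQ label, since the labels do not say what the allele changes. Cartilage and annulus markers of the disc summed to 6620 to 20580 TPM and notochordal markers to 552 to 6431 TPM, both present in all 16 libraries. Part of that range went with injury. In injured mutants limma called 3 of 5 notochordal markers lower (T, Krt19 and Krt8, with a list median of -2.56). It also called 3 of 8 cartilage and annulus markers lower (Comp, Tnmd and Scx, with a list median of -0.32). Of all tested genes 17.7% were called lower. In the wild type none of either list passed, where 0.116% of all tested genes did. The list medians there were -1.29 (notochordal) and 0.31 (cartilage and annulus). In intact discs the neutrophil marker Ly6g was at 0 in every library, the 8 neutrophil markers summed to 6.87 to 7.78 TPM (wild type) and 1.80 to 2.89 TPM (mutants), and the macrophage markers summed to 157 to 192 and 151 to 208 TPM. In injured discs those sums ran from 4.23 to 185 and from 244 to 3475 TPM in the wild type, and from 13.4 to 1005 and from 761 to 7699 TPM in mutants.

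In intact discs Rela was the most abundant of the 10 mRNAs, and Nfkbia, the inhibitor that binds Rela-containing dimers, came next. Over the 7 intact libraries Rela averaged 124 ± 15.7 TPM (SD, n = 7; 101 to 144), above 95.7% of all tested genes, and Nfkbia averaged 93.9 ± 13.1 TPM (75.3 to 107). The ranges of these 2 genes overlapped, and both lay wholly above the others. Nfkb1 followed at 38.2 ± 5.11 TPM (29.9 to 46.3), then Nfkbiz at 29.1 ± 5.73, Nfkbib at 28.2 ± 5.35 and Nfkb2 at 22.8 ± 2.55 TPM, each overlapping its neighbour in the order. Relb was at 18.0 ± 1.02 TPM (16.5 to 19.3), the tightest of the 10 relative to its mean. Its range overlapped that of Nfkb2, whose lowest library had 18.5 TPM. The lowest 3, which overlapped one another and lay below Relb in every library, were Nfkbie at 9.67 ± 1.94, Rel at 9.04 ± 1.54 and Tnfaip3 at 8.30 ± 1.76 TPM. Tnfaip3 stood above 45.2% of tested genes, so even the least abundant member was near the middle of all tested genes.

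**Figure D1:**
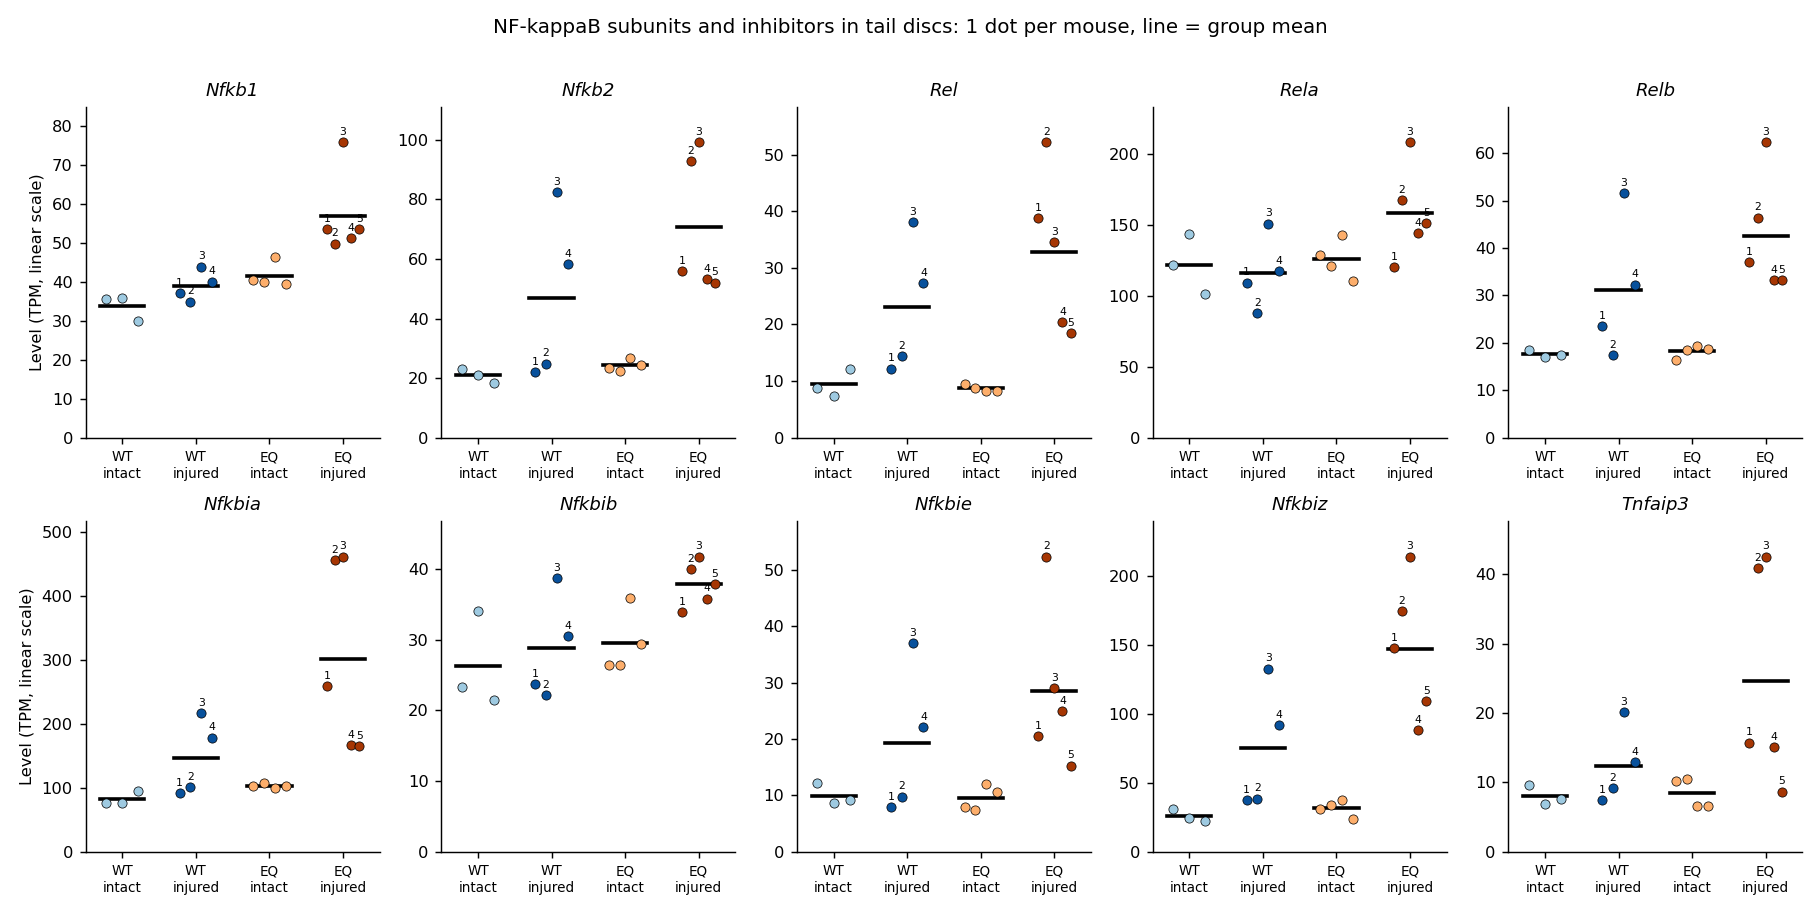
TPM (linear axis from 0) of the 10 NF-kappaB genes in each mouse, with 1 dot per mouse, a line at the group mean, and the mouse number beside injured samples. In injured wild-type discs mice 3 and 4 lay above mice 1 and 2 for every gene, and in injured mutants mouse 3 or mouse 2 was highest for every gene.

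Injury of mutant discs went with higher mRNA of 4 of the 5 subunits, of 2 of the 3 cytoplasmic inhibitors, and of Nfkbiz and Tnfaip3. Changes are differences of mean log2(TPM + 1), tested with limma over 24188 genes with Benjamini-Hochberg adjustment and a threshold of 0.05. On this test 8 of the 10 genes rose and none fell, where 30.8% of all tested genes changed (13.1% higher and 17.7% lower). Higher genes were 42.6% of those calls and 52.1% under median-of-ratios scaling, which left the calls of the 10 genes at 8. The median change of the 10 genes was 1.31, against -0.08 over all tested genes. In 7 of the 10 genes every injured mutant lay above every intact one, against 12% of all tested genes, the exceptions being Rela, Nfkbib and Tnfaip3. In a bulk sample, more cells that carry an mRNA and more mRNA per cell cannot be told apart.

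Among the subunits, Rel, whose product is best known from lymphocytes and myeloid cells, had the largest change. Rel (chr11:23736847-23770970, minus strand, GRCm38) was at 9.48, 8.85, 8.23 and 8.26 TPM in intact mutants 1 to 4 and at 38.8, 52.1, 34.6, 20.4 and 18.4 TPM in injured mutants 1 to 5. Even the lowest injured mouse lay well above the highest intact one. The change was 1.70 ± 0.33 (SE; limma adjusted p = 0.0023), and the ratio of mean TPM was 3.78. Nfkb2 (chr19:46304320-46312385, plus strand), the precursor of the noncanonical pathway's subunit, was at 23.5, 22.4, 26.6 and 24.5 TPM in intact mutants and at 56.0, 92.9, 99.1, 53.2 and 52.0 TPM in injured ones. Mice 2 and 3 were the highest here, and the others lay close together at about the same level. The change of Nfkb2 was 1.45 ± 0.32 (limma adjusted p = 0.0050). Its exons overlap those of Psd and of a noncoding gene on the other strand, and with the use of strand in counting unknown its level is uncertain to that extent.

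Relb (chr7:19606217-19629438, minus strand), the usual partner of the Nfkb2 product, was at 16.5, 18.5, 19.3 and 18.7 TPM in intact mutants and at 37.1, 46.4, 62.3, 33.2 and 33.2 TPM in injured ones. Its change of 1.14 ± 0.25 (limma adjusted p = 0.0042) was of the same order as that of Nfkb2. Nfkb1 (chr3:135584655-135691547, minus strand) was at 40.5, 40.0, 46.3 and 39.4 TPM in intact mutants and at 53.5, 49.8, 75.7, 51.3 and 53.5 TPM in injured ones, a change of 0.43 ± 0.12 (limma adjusted p = 0.0151). All 5 injured mutants lay above the intact range, but the step was small, with a ratio of mean TPM of 1.37, and mouse 3 stood well above the other injured mutants. Rela (chr19:5637483-5648130, plus strand), the main activating subunit of the canonical dimer, ranged from 111 to 143 TPM in intact mutants and from 120.3 to 208 TPM in injured ones. The Rela groups overlapped, and its change of 0.31 ± 0.17 did not pass the test (limma adjusted p = 0.173; 95% interval -0.05 to 0.67).

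Of the inhibitors, Nfkbia and Nfkbie rose and Nfkbib did not pass. Nfkbia (chr12:55489410-55492647, minus strand) encodes the inhibitor that is destroyed and resynthesised fastest. It was at 102, 107, 99.3 and 103 TPM in intact mutants and at 259, 455, 461, 167 and 165 TPM in injured ones. Intact mutants were nearly equal, while the injured ones spanned a wide range with mice 2 and 3 at the top. The change was 1.39 ± 0.32 (limma adjusted p = 0.0058). Nfkbie (chr17:45555703-45563169, plus strand) was at 7.85, 7.40, 12.0 and 10.6 TPM in intact mutants and at 20.5, 52.4, 29.1, 24.9 and 15.3 TPM in injured ones. Mouse 2 was by far the highest for Nfkbie, and the change was 1.40 ± 0.39 (limma adjusted p = 0.0155). Nfkbib (chr7:28758251-28767512, minus strand), an inhibitor that is known to respond more slowly, ranged from 26.4 to 36.0 TPM in intact and from 33.9 to 41.8 TPM in injured mutants. Its change was 0.35 ± 0.17 (limma adjusted p = 0.119). The exons of Nfkbib overlap those of Sirt2 and Ccer2 on the other strand.

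Nfkbiz had the largest change of the 10 genes. It encodes a nuclear protein of the inhibitor family that works as a cofactor at late inflammatory genes such as Lcn2 and Il6. Nfkbiz (chr16:55811375-55838899, minus strand) was at 30.8, 33.7, 37.6 and 23.9 TPM in intact mutants and at 148, 175, 214, 88.5 and 109 TPM in injured ones. Its groups were separated by more than the whole range of the intact group, and the change was 2.13 ± 0.34 (limma adjusted p = 0.00097; ratio of mean TPM 4.66). Tnfaip3 (chr10:19000910-19015657, minus strand) encodes a ubiquitin-editing enzyme that shuts down signalling above the kinase complex. It was at 10.2, 10.5, 6.63 and 6.60 TPM in intact mutants and at 15.7, 41.0, 42.6, 15.0 and 8.68 TPM in injured ones. Injured mouse 5 lay within the intact range for Tnfaip3, and mice 2 and 3 carried most of the difference. The change was 1.22 ± 0.40 (limma adjusted p = 0.0322), and without injured mouse 2 it was 0.98 (limma adjusted p = 0.074) and without injured mouse 3 it was 0.97 (limma adjusted p = 0.0771). Leaving out intact mutant 3 (limma adjusted p = 0.0757) or intact mutant 4 (0.0826) also ended the call, while the other 7 of the 10 genes kept their calls without any 1 mouse.

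**Figure D2:**
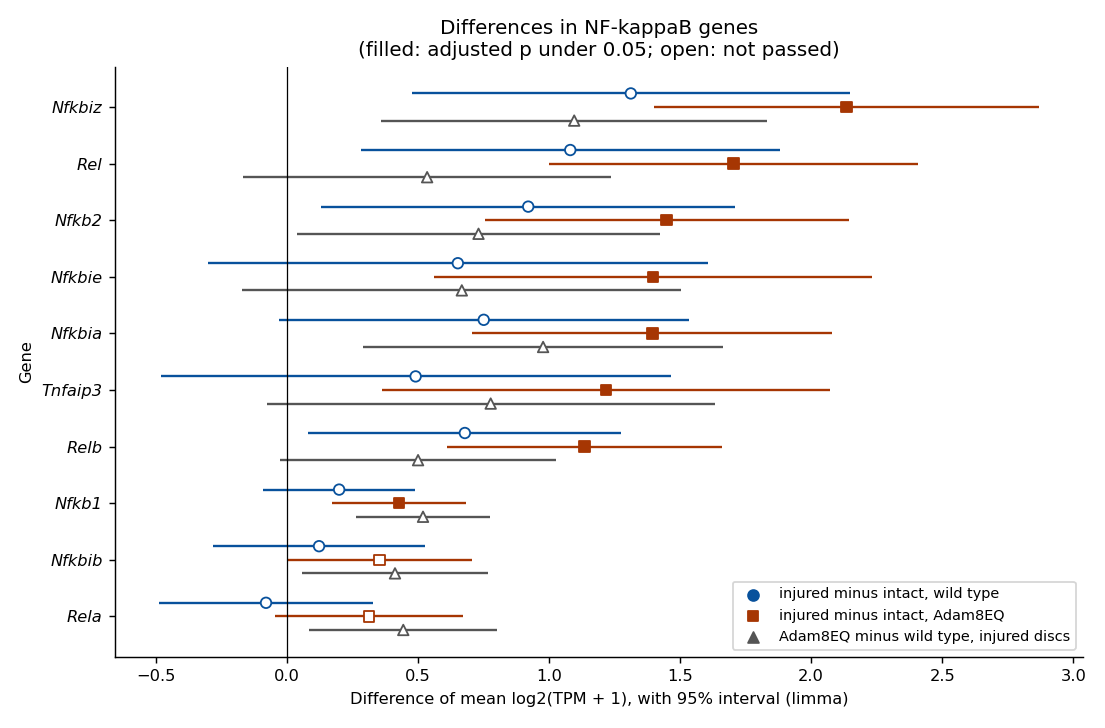
Differences of mean log2(TPM + 1) with 95% intervals from limma for the 10 genes: injured minus intact in wild type (circles) and mutants (squares), and mutant minus wild type in injured discs (triangles), filled where the adjusted p was under 0.05. The filled marks are the 8 mutant injury changes, from 0.43 (Nfkb1) to 2.13 (Nfkbiz), and all intervals of Rela and Nfkbib for injury reach 0 or nearly so.

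The injury changes were also taken within each kind of library name, and they are set beside markers of cell types that moved with injury. Within mutants whose names start with A8 (2 injured, 2 intact) the change was 2.18 for Rel, 1.71 for Nfkbia and 2.28 for Nfkbiz, and these 3 passed, where 14.8% of all tested genes did. Within those whose names start with M (3 injured, 2 intact) the same changes were 1.41, 1.20 and 2.05, and none of the 10 genes passed, where 3% of all tested genes did. All 10 changes were positive in both subsets. The macrophage marker sum was 1974, 7699, 1237, 2290 and 761 TPM in injured mutants 1 to 5, above the highest intact mutant (208 TPM) in each, and the neutrophil sum was 82.3, 1005, 31.5, 88.6 and 13.4 TPM. Of the tested markers 6 of 7 macrophage genes and 4 of 6 neutrophil genes rose in injured mutants, against 13.1% of all tested genes. The macrophage marker Csf1r overlapped, at 41.3 to 68.7 TPM in intact and 40.1 to 142 TPM in injured mutants. Lyz2, the macrophage marker with the highest values, ran from 414 to 5547 TPM in injured mutants. Elane was at 0 in every injured mutant, and the 5 lymphocyte markers summed to at most 5.14 TPM in any library. Notochordal markers moved the other way: their sum was 3328 to 5502 TPM in intact and 552 to 3345 TPM in injured mutants. Of the 8 cartilage and annulus markers 3 were called lower, as given above, against 17.7% of all tested genes, and 2 had positive changes. The part of these cell types in the changes of the NF-kappaB genes was not tested. Mouse 2, with the highest leucocyte marker sums, was highest for Rel and Nfkbie. Mouse 3, with the second lowest sums, was highest for the other 8 genes. Mouse 2 came close for Nfkbia (455 and 461 TPM), Tnfaip3 (41.0 and 42.6), Nfkbib (40.0 and 41.8) and Nfkb2 (92.9 and 99.1). It lay further below for Rela (168 and 208), Relb (46.4 and 62.3), Nfkbiz (175 and 214) and Nfkb1 (49.8 and 75.7).

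With the mean log level of the neutrophil and macrophage markers as a covariate, none of the 10 genes passed (limma adjusted p from 0.114 for Nfkbiz to 0.969 for Nfkbie), and 3.22% of all tested genes did. The change of Nfkb1 was then 0.42, close to the 0.43 without the covariate, and that of Nfkbiz was 1.22. Those of Rel and Nfkb2 were 0.62 and 0.46, and that of Nfkbie was -0.028. The covariate itself differs between intact and injured mutants, so the 2 terms share much of their variation.

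**Figure D3:**
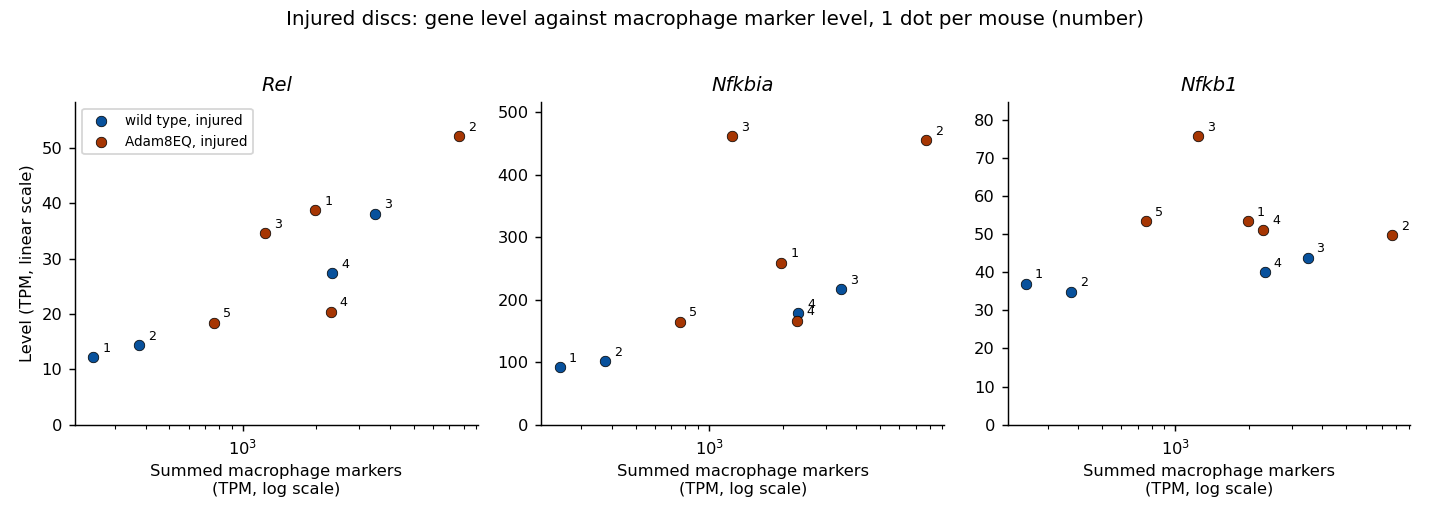
TPM (linear axis from 0) of Rel, Nfkbia and Nfkb1 in the 9 injured discs against the summed TPM of the macrophage markers (log axis), 1 numbered dot per mouse. Rel was lowest in the mice with the lowest marker sums and highest in mutant mouse 2 (7699 TPM of markers). Nfkb1 and Nfkbia were highest in mutant mouse 3 (1237 TPM of markers). For Nfkbia mutant mouse 2 came close (455 against 461 TPM).

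Injury of wild-type discs gave no call among the 10 genes. limma called 0 of the 10 where it called 0.116% of all tested genes, and at an unadjusted p under 0.05 it found 4 of the 10 (Nfkb2, Rel, Relb and Nfkbiz), against 17.2% of all tested genes. The median change of the 10 was 0.66, against 0.01 over all tested genes. Nfkbiz was the 1 gene in which every injured mouse lay above every intact one, against 9.22% of tested genes. Its levels were 30.8, 24.3 and 22.3 TPM in intact wild-type mice 1 to 3 and 37.4, 38.5, 133 and 92.0 TPM in injured mice 1 to 4, a change of 1.31 ± 0.39 (limma adjusted p = 0.154).

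The 4 injured wild-type mice differed widely from one another. Mouse 3 exceeded the intact wild-type range in all 10 genes and mouse 4 in 8. Mouse 1 exceeded it in 3 (Nfkb1, Relb and Nfkbiz) and mouse 2 in 4 (Nfkb2, Rel, Nfkbia and Nfkbiz). The library names of mice 1 and 2 carry consecutive numbers, and so do those of mice 3 and 4, after a gap. A difference between mice and a difference between these sets of libraries thus cannot be told apart. Nfkb2 was at 22.1, 24.9, 82.3 and 58.3 TPM in injured mice 1 to 4, beside 23.2, 21.2 and 18.5 TPM in the intact ones. Rel was at 12.2, 14.4, 38.1 and 27.4 TPM, beside 8.82, 7.41 and 12.2 TPM. Nfkbia was at 92.0, 101, 217 and 178 TPM, beside 75.3, 75.9 and 94.5 TPM. In each of these genes mice 1 and 2 lay inside or just above the intact range and mice 3 and 4 far above it. Relb behaved alike, at 23.5, 17.4, 51.6 and 32.3 TPM beside 18.4, 17.0 and 17.5 TPM. Nfkbie was at 7.93, 9.78, 36.9 and 22.2 TPM beside 12.2, 8.56 and 9.13 TPM, so that mouse 1 was below every intact mouse. Tnfaip3 was at 7.44, 9.22, 20.1 and 13.0 TPM beside 9.68, 6.87 and 7.62 TPM.

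The remaining 3 genes moved less in wild-type discs. Nfkb1 was at 37.0, 34.9, 43.9 and 40.0 TPM beside 35.6, 35.9 and 29.9 TPM, and Nfkbib at 23.8, 22.2, 38.7 and 30.5 TPM beside 23.3, 34.1 and 21.5 TPM. Rela was at 109, 87.9, 151 and 117 TPM beside 121 to 144 TPM in intact mice 1 and 2 and 101 TPM in mouse 3, with a change of -0.08 ± 0.19 (limma adjusted p = 0.858). Leucocyte markers were likewise highest in mouse 3, then in mouse 4. The macrophage sum was 244, 375, 3475 and 2321 TPM and the neutrophil sum 4.23, 5.14, 185 and 139 TPM in injured mice 1 to 4. Among the tested markers 0 of 7 macrophage and 0 of 6 neutrophil genes passed for injury in the wild type, where 0.116% of all tested genes did. Their median changes were 2.38 and 1.71, against 0.01 over all tested genes. The part of these cells in the spread of the NF-kappaB genes was not tested.

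Between genotypes in intact discs the 10 genes had small estimated differences. limma called none of them and 0.0165% of all tested genes, and at an unadjusted p under 0.05 it found 1 of the 10 against 3.78% of all tested genes. That gene was Nfkb1, at 29.9 to 35.9 TPM in the wild type and 39.4 to 46.3 TPM in mutants, without overlap (difference 0.29 ± 0.14, limma adjusted p = 1). Nfkbia did not overlap either, at 75.3 to 94.5 TPM in the wild type and 99.3 to 107 TPM in mutants (0.33 ± 0.37, limma adjusted p = 1). Such separation with mutants higher was seen in 2.77% of all tested genes. The 10 differences ran from -0.09 (Rel) to 0.33. The 95% interval was -0.89 to 0.71 for Rel, -0.92 to 1.02 for Tnfaip3 and -1.03 to 0.88 for Nfkbie. It was -0.59 to 0.99 for Nfkb2 and -0.56 to 1.11 for Nfkbiz, and narrower for Nfkb1 (0.002 to 0.58). Sizeable differences in either direction thus lay within the error for Rel, Tnfaip3, Nfkbie, Nfkb2 and Nfkbiz, and the genotypes were not shown to be alike.

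Between genotypes in injured discs all 10 genes had the higher mean in mutants, but none passed. limma called 0 of the 10 and 0.918% of all tested genes. At an unadjusted p under 0.05 it found 6 of the 10 (Nfkb1, Nfkb2, Rela, Nfkbia, Nfkbib and Nfkbiz), against 20.3% of all tested genes, and 39.1% of all tested genes had a difference above 0. The differences ran from 0.41 (Nfkbib) to 1.10 (Nfkbiz), with a median of 0.60 against -0.09 for all tested genes. The all-gene value depends on scaling: under median-of-ratios scaling it was -0.002. None of the 10 differences changed sign in any setting. The nearest to the threshold was Nfkb1, at 34.9 to 43.9 TPM in the wild type and 49.8 to 75.7 TPM in mutants, with 0.52 ± 0.12 (limma adjusted p = 0.0537). It was the 1 gene of the 10 whose groups did not overlap, as was seen with mutants higher in 0.905% of tested genes. The limma adjusted p of Nfkb1 was 0.231 with only the groups compared in the fit and 0.115 with a replicate block. With only the A8 or only the M mutants it was 0.215 or 0.0789, and without injured wild-type mouse 1 or 2 it was 0.173 or 0.195. The settings in which Nfkb1 passed are given below. Nfkbiz (1.10 ± 0.34, limma adjusted p = 0.109) and Nfkbia (0.98 ± 0.32, limma adjusted p = 0.12) had larger differences with more spread, and in both wild-type mice 3 and 4 lay above the lowest mutant.

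The genotype result in injured discs turned on 1 mouse. Without injured wild-type mouse 3, which was the highest of its group for all 10 genes, limma called 7 of the 10 (Nfkb1, Nfkb2, Rela, Relb, Nfkbia, Nfkbib and Nfkbiz), and 9.31% of all tested genes. Nfkbiz then differed by 1.44 (limma adjusted p = 0.0168) and Nfkb1 by 0.58 (limma adjusted p = 0.0181). Leaving out injured mutant 2 or injured mutant 4 gave a call for Nfkb1 alone, with 2.79% and 2.47% of all tested genes called. No reason to leave out any of these mice is given in the labels.

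The injury change itself was not shown to differ between genotypes. The difference of the 2 injury changes (mutant minus wild type) was positive for all 10 genes, as for 41.8% of tested genes, and ran from 0.23 (Nfkb1) to 0.82 (Nfkbiz). Its median over all tested genes was -0.08, and 0.008 under median-of-ratios scaling. limma called 0 of the 10 and 0% of all tested genes, and at an unadjusted p under 0.05 it found 0 of the 10 and 8.18% of all tested genes. For Nfkbiz the 95% interval was -0.29 to 1.94 (limma adjusted p = 0.706), for Tnfaip3 -0.57 to 2.02 and for Rel -0.44 to 1.69. The intervals hold both no difference and a much larger change in mutants, so the data do not show that the genotypes responded alike.

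The share of Rela in the subunit mRNA was lower in injured than in intact mice of both genotypes. No test was run on the shares. Rela was 58.5%, 63.8% and 56.4% of the summed TPM of the 5 subunits in intact wild-type mice 1 to 3, and 53.6%, 49.0%, 41.1% and 42.6% in injured mice 1 to 4. In mutants it was 58.9%, 57.4%, 58.7% and 54.9% in intact mice and 39.4%, 41.0%, 43.4%, 47.7% and 49.1% in injured mice. In neither genotype did injured and intact mice overlap in the share of Rela, and this held for injured wild-type mice 1 and 2, whose levels of most members were near the intact range. Nfkb2 took up more of the sum, 11.1% ± 0.709 (SD, n = 4) in intact and 19.2% ± 2.41 (n = 5) in injured mutants, and 10.3% ± 0.883 (n = 3) and 17.1% ± 5.63 (n = 4) in the wild type. Its ranges were apart in mutants and overlapped in the wild type. Rel went from 4.01% ± 0.423 to 9.07% ± 3.35 in mutants, again without overlap, whereas its wild-type ranges overlapped (3.29% to 6.82% intact, 5.97% to 10.4% injured). These shares are of mRNA and say nothing of which dimers formed.

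Inhibitor mRNA per subunit mRNA was also followed, as the summed TPM of Nfkbia, Nfkbib and Nfkbie over that of the 5 subunits. It was 0.653 ± 0.0473 (SD, n = 4) in intact and 0.986 ± 0.262 (n = 5) in injured mutants. Injured mutants 1 to 4 were at 1.03, 1.34, 1.11 and 0.752, above all intact mice, whereas injured mutant 5 at 0.706 lay just inside the intact range of 0.606 to 0.711. In the wild type the ratio was 0.586 ± 0.0971 (n = 3) in intact and 0.746 ± 0.102 (n = 4) in injured mice, with overlap. Nfkbia made up most of the inhibitor sum throughout, from 64.0% in intact wild-type mouse 2 to 86.7% in injured mutant 3. No test was run on these sums.

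**Figure D4:**
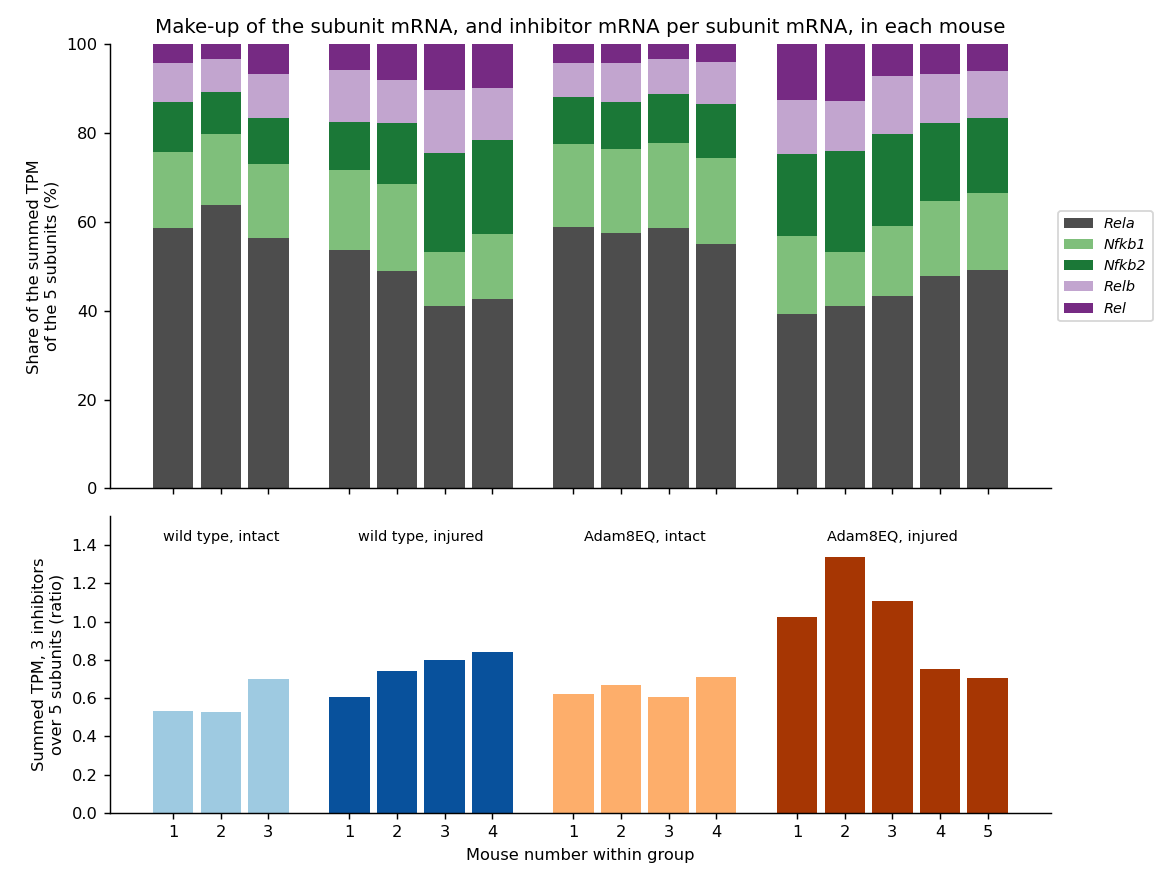
Upper panel, share (%) of each of the 5 subunits in their summed TPM in every mouse; lower panel, summed TPM of the 3 inhibitors divided by that of the subunits, on an axis from 0. The grey Rela share is 54.9% or more in all intact mice and 53.6% or less in all injured ones, and the ratio exceeds 1 in injured mutants 1, 2 and 3.

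Genes around the family were read from 3 lists. Of 23 kinases and adaptors upstream of NF-kappaB, 8 rose, 3 fell and 12 did not pass for injury in mutants, with a median change of 0.17. Over all tested genes 13.1% rose and 17.7% fell, with a median of -0.08. Chuk, a catalytic subunit of the inhibitor kinase complex, went from 23.5 to 31.7 TPM in intact mutants to 39.3 to 56.9 TPM in injured ones (0.73 ± 0.14, limma adjusted p = 0.0021). Ikbkb, the other catalytic subunit, fell by 0.24 ± 0.08 (limma adjusted p = 0.0399). Ikbke, a related kinase, rose most (1.28 ± 0.40, limma adjusted p = 0.0272), then Birc3, a ubiquitin ligase and known target (1.09 ± 0.29, limma adjusted p = 0.012), followed by Traf3 (0.74 ± 0.16). The adaptors Traf5 (fell by 1.25 ± 0.37) and Traf6 (fell by 0.39 ± 0.11) were the other falls. The call of Ikbkb was lost without injured mutant 1, 3, 4 or 5, any 1 intact mutant, injured wild-type mouse 4 or intact wild-type mouse 1 (limma adjusted p from 0.0503 to 0.089). It was also lost under median-of-ratios scaling (change -0.16, limma adjusted p = 0.214) and quantile normalization (0.102), without the trend (0.0512), with only the groups compared (0.0723) and with a replicate block (0.0871). The call of Ikbke was lost without intact mutant 1 (0.0616), 2 (0.0596) or 3 (0.0586), that of Traf6 without intact mutant 2 (0.0613) or with a replicate block (0.0519), and that of Traf5 without intact mutant 4 (0.0556). With only the groups compared Ikbke (0.0501) and Traf5 (0.0524) were lost too. In the wild type none of the 23 passed for injury, where 0.116% of all tested genes did.

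Of 15 other genes that restrain or modulate the pathway, 6 rose (Bcl3, Nfkbid, Zc3h12a, Tank, Tnip3 and Rnf11), 1 fell (Cyld) and 8 did not pass in mutants, with a median of 0.22, beside the same 13.1% higher, 17.7% lower and median of -0.08 for all tested genes. Bcl3, a nuclear member of the inhibitor family that binds the Nfkb1 and Nfkb2 products, was at 2.45, 2.80, 5.97 and 4.63 TPM in intact mutants and at 94.3, 90.9, 92.9, 60.8 and 65.1 TPM in injured ones (4.08 ± 0.37, limma adjusted p = 7.12e-05). In the wild type it was at 9.46, 8.63 and 3.29 TPM in intact mice and at 32.7, 31.1, 119 and 55.7 TPM in injured ones (2.78 ± 0.42, limma adjusted p = 0.0267). Bcl3 was thus the 1 gene of this list that passed in both genotypes, and injured wild-type mice 1 and 2 were well above the intact ones here. Its wild-type call was lost without intact wild-type mouse 1 (limma adjusted p = 0.0721), 2 (0.0801) or 3 (0.119), injured wild-type mouse 4 (0.0821) or injured mutant 5 (0.0517), whereas the change stayed between 2.38 and 3.02 in these fits. It was also lost with only the groups compared (0.195), with a replicate block (0.135), with only the A8 (0.117) or M mutants (0.0556) in the fit, and with the leucocyte covariate (change 2.26, 0.0933). Nfkbid, another nuclear inhibitor-like protein, was between 0 and 0.126 TPM in intact and between 1.07 and 23.9 TPM in injured mutants (2.57 ± 0.63, limma adjusted p = 0.008). Zc3h12a, an RNase that degrades inflammatory mRNAs, rose by 2.27 ± 0.46 (limma adjusted p = 0.003), and Tank, an adaptor that restrains signalling, rose by 1.41 ± 0.19 (limma adjusted p = 0.00048). Cyld, a deubiquitinase, fell by 0.74 ± 0.18 (limma adjusted p = 0.0087).

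Of 31 known target genes 30 were tested, and 22 rose, 1 fell and 7 did not pass in mutants, with a median change of 2.95, against 13.1% higher, 17.7% lower and a median of -0.08 for all tested genes. Nos2, the inducible nitric oxide synthase, went from 0.632 to 5.35 TPM in intact mutants to 331 to 1516 TPM in injured ones (7.43 ± 0.998, limma adjusted p = 0.00047). The chemokines Cxcl1 (6.59 ± 1.23) and Ccl2 (5.94 ± 0.66) and the matrix protease Mmp3 (5.99 ± 1.13) were the next largest rises, with limma adjusted p of 0.0019, 0.0002 and 0.002. Irf1, an interferon-response factor, was the 1 that fell, by 0.64 ± 0.18 (limma adjusted p = 0.0145). In the wild type only Lcn2, an iron-binding protein of the acute-phase response, passed for injury, where 0.116% of all tested genes did. Lcn2 went from 58.4 to 85.8 TPM in intact to 478 to 1805 TPM in injured mice (3.89 ± 0.50, limma adjusted p = 0.0069). Without intact wild-type mouse 1 or 2 its adjusted p was 0.0608 or 0.0704, with only the groups compared 0.106, and with the leucocyte covariate 0.0569. The changes of the targets thus ran to higher values than those of the family itself. For the 2 genotype comparisons and for the difference of the injury changes limma called none of the genes on the 3 lists. Of all tested genes it called 0.0165% (intact discs), 0.918% (injured discs) and 0% (difference of the injury changes). Many genes of these lists are also expressed by leucocytes. With the leucocyte covariate Bcl3 (3.21), Tank (1.05), Nos2 (4.97), Ccl2 (3.85) and Irf1 (-0.96) kept their calls for injury in mutants. The other list genes whose mutant changes are given above lost theirs, among them Nfkbid (0.046), Birc3 (0.049), Zc3h12a (1.05), Cyld (-0.33), Cxcl1 (2.67) and Mmp3 (2.21), while Chuk was at 0.65 and Traf3 at 0.61.

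**Figure D5:**
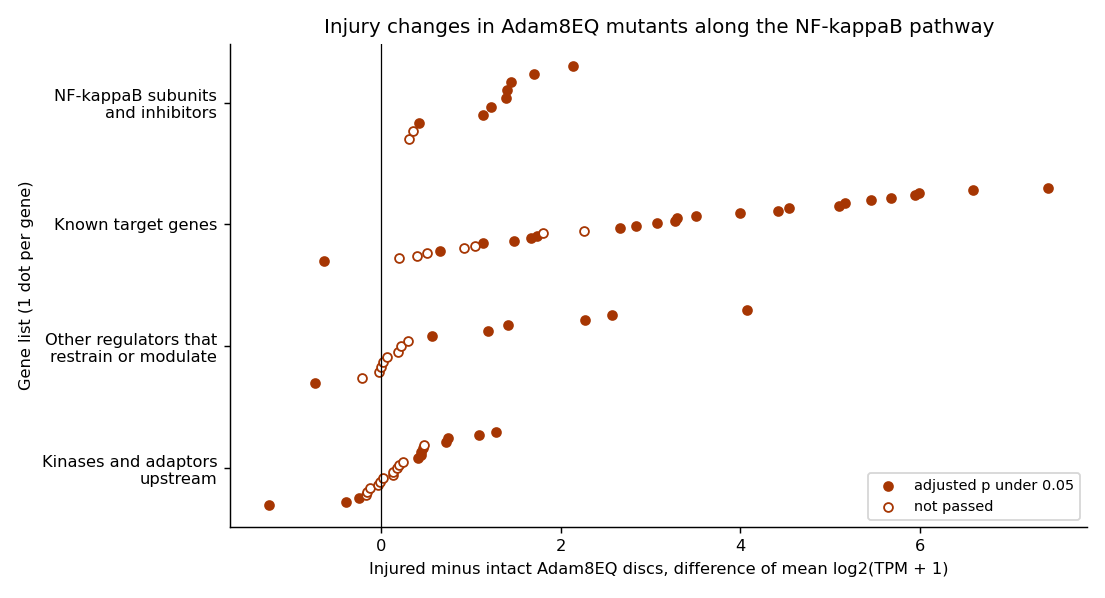
Difference of mean log2(TPM + 1), injured minus intact mutants, for each gene of 4 groups (1 dot per gene, filled where the limma adjusted p was under 0.05). The 10 NF-kappaB genes lie between 0.31 and 2.13, the target genes between -0.64 and 7.43, and the upstream genes between -1.25 and 1.28.

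Genes whose levels went most closely with each member were named by Pearson's r of log2(TPM + 1) over the 16 libraries after the mean of each group was taken off, among 11926 candidates. These are descriptions of how mice within a group differed, and the libraries share depth and cell composition. Nfkbie went with Galnt10 (r = 0.983), Slc43a2 and Hmox1, and Nfkb2 with Smox (r = 0.972), Cebpa and Zc3h12a, the last of which is on the list of restraining genes. Nfkbiz went with St5 (r = 0.969), Emp1 and Gpr84, and Rel with Abcb1b (r = 0.959), Pih1d1 and Znrf1. Relb went with Srxn1 (r = 0.952), Gch1 and Ddn. Nfkbia and Tnfaip3, both known as feedback inhibitors, had the same closest gene, the receptor gene Tlr2 (r = 0.935 and 0.903). After it came Gch1 and Abcb1a for Nfkbia, and Mboat7 and Rab8a for Tnfaip3. The genes with small injury changes had other companions: Rela went with Adrm1 (r = 0.948), Lemd2 and Cdc42bpb, Nfkbib with Dnajb11 (r = 0.948), Ppp1r14b and Pinx1, and Nfkb1 with Lrrc8d (r = 0.93), Itga5 and Tmem43.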

How the data were processed

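Tail disc RNA of 16 mice had been sequenced after ribosomal RNA depletion, per the labels' protocols, although the molecule field reads polyA RNA. The authors deposited 1 table of TPM values per mouse, which sum to 1000000 in each library; 14054 of 49315 genes are 0 in all. The submitters' processing notes name GRCm38 and bcl2fastq 2.20. The aligner, counter, annotation and use of strand are not given in the sources used here. Groups came from the titles, because the genotype field of wild-type samples is cut short.

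Positions and exon lengths are from GENCODE M21 (GRCm38), which held 99.5% of the identifiers. Implied reads are TPM times exon length, scaled so that low values fall on whole numbers (94.1% to 95.0% of values under 20 reads within 0.05 of a whole number), and are approximate. Promoter windows are RefSeq's.

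Tests used limma 3.58.1 (R 4.3.3; lmFit, eBayes with trend) on log2(TPM + 1). They covered the 24188 genes that reached 1 TPM in 3 or more libraries, and all 16 libraries entered 1 fit. A pseudocount of 1 understates changes of low genes. Errors are moderated SE over mice, and p-values are Benjamini-Hochberg adjusted over all tested genes. The script was tested on simulated data. Other values came from Python 3.11.15.

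The members and lists were chosen with earlier results of these data known. All members are named. List genes were named by the largest called changes, up to 4 in each direction, and companions as the 3 highest correlations among genes averaging at least 5 TPM. Alternatives were a pseudocount of 0.1, no filter, a mean of 5 TPM, median-of-ratios and quantile scaling, no trend, sample weights, only the groups compared, a replicate block, library naming as a covariate or subset, a leucocyte marker covariate, and leaving out each mouse.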

Additional observations from a re-analysis of the deposited data

Results flagged for a closer look

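Of the 30 sets of values examined (10 genes in the 3 groups of 4 or 5 mice), 2 held a mouse set far apart from the rest of its group, and chance alone gives about 1 in 20 such sets. Both were of Nfkb1. Intact mutant mouse 3 had 46.3 TPM of Nfkb1, where the next mouse had 40.5 TPM. Injured mutant mouse 3 had 75.7 TPM, where the next had 53.5 TPM. The shared number does not make these the same mouse, and both library names start with M. Without injured mutant 3 the Nfkb1 difference between genotypes in injured discs was 0.41 (limma adjusted p = 0.103).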

How the results depend on the processing

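The 8 calls for injury in mutants stayed at 8 under every change of pseudocount, filter, scaling, trend or weights and with library naming as a covariate. They fell to 3 in the A8 mutants (all tested genes, 3583 called) and to 0 in the M mutants (725) and with the leucocyte covariate (778), against 7438 in the full fit; the subsets have fewer mice, and the cause was otherwise not tested. Leaving out 1 mouse gave 7 to 8. With only the groups compared, 8 passed, with Nfkbib in place of Tnfaip3.

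For genotype in injured discs 0 became 1 (Nfkb1) under median-of-ratios scaling, sample weights and the filter at a mean of 5 TPM, and 0 to 7 when a mouse was left out. Over all tested genes that comparison's 222 calls became 1070 with sample weights, 149 without the trend and 86 without a filter. They became 93 with quantile and 160 with median-of-ratios scaling, 5 with only the groups compared, and 7 to 2253 without 1 mouse. Those of injury in the wild type, 28, became 64 with a pseudocount of 0.1, 11 without a filter and 77 with weights. They became 4 with only the groups compared, and 2 to 452 without 1 mouse. For injury in mutants the 7438 became 5332 to 7985 without 1 mouse.

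Changes that were not called turned sign with the leucocyte covariate for injury in the wild type: Nfkbib to -0.072, Nfkbie to -0.20 and Tnfaip3 to -0.11. In mutants the changes of Nfkbie and Ikbke, both called without the covariate, turned to -0.028 and -0.16. Without 1 mouse the wild-type change of Rela ran from -0.21 to 0.045 and that of Nfkbib from -0.027 to 0.32. The cause was not tested.

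Mouse numbers are shared between groups but belong to different mice. Over 21 same-numbered pairs the correlation of deviations ran from -0.217 to 0.151, and 1 pair exceeded 0.1. No pairing by number was seen, although in mutants numbers 1 and 2 are the A8 libraries and the others the M libraries. A replicate block left 8 calls for injury in mutants and 0 in the other comparisons; over all tested genes it gave 6191, 5 (injury in the wild type) and 11 (genotype in injured discs).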
